A study of Mus musculus with 8 samples.

Results

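The complement system was followed through 31 genes for its components, regulators and receptors. A gene was included when the array annotation tied a probe set (a group of probes for 1 transcript) to its symbol alone, and where several qualified the brightest would be used. By this rule 29 of the 31 were measured, among 19938 genes in all; C3 and Cfd were not analysed here. The 29 fall into 6 genes made mainly by macrophages and other leukocytes (the chains of C1q, properdin and the receptors for C3a and C5a), 18 made mainly by hepatocytes, and 5 from other sources or with a place on many cell types.

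The livers came from 4 transgenic mice, which carry constitutively active IKK2 under the LAP promoter, and from 4 wild-type control mice. All 8 mice were 4 weeks old, on a mixed background of C57BL/6 and NMRI backcrossed to C57BL/6 at least 4 times. Each liver was hybridised to its own Affymetrix array, which gave log2 expression values. IKK2 is the kinase that releases the transcription factor NF-kB from its inhibitors, and the LAP promoter is active in hepatocytes, so the other cells of the organ are not the intended site of the transgene.

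Complement is a cascade of plasma proteases and binding proteins that tags microbes and debris, recruits leukocytes and can open pores in membranes. C1q starts the classical pathway on antibody complexes and mannose-binding lectins start the lectin pathway. Factor B and properdin amplify deposition through the alternative pathway, and C5 to C9 build the membrane attack complex. Hepatocytes supply most of the plasma components, whereas C1q is a product of macrophages, among them the Kupffer cells of the liver.

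Array medians lay between 4.88 and 5.08, and Ikbkb, the gene of the kinase, was higher in every transgenic liver (log2 fold change 1.00, limma adjusted p = 0.0185). The 10 hepatocyte markers measured averaged 12.38 to 12.61 in transgenic and 12.49 to 12.63 in control livers, far above the array medians. A pair of livers stood apart for many of the genes. Transgenic replicate 2 had the highest reading of its group for all 6 macrophage-made genes and the lowest for 11 of the 18 hepatocyte-made genes, and control replicate 2 had the lowest of its group for 12 of those 18. Counts without these livers are therefore given beside the main ones.

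Of the 29 complement genes 7 rose in transgenic liver and 0 fell in limma's test (adjusted p under 0.05 over the 21789 probe sets with 1 gene symbol), while 22 did not pass. The 7 were C1qa, C1qb, C1qc, Cfp, C3ar1, C2 and Cfb. Over all genes 6.34% were called, 4.67% higher and 1.67% lower, which is the background for these counts. At an unadjusted p under 0.05, 9 were higher and 5 lower, against 15.3% and 18.3% of all genes, so the 5 of 29 that were lower are close to the background. All 5 belonged to the 18 hepatocyte-made genes, of which 3 were higher at this threshold. Without replicate 2 of both groups 7 rose and 0 fell, with C5ar1 called (adjusted p = 0.0308) and Cfp not (0.0541). Without transgenic replicate 2 there were 8 and 1, and without control replicate 2 there were 2 and 0. Leaving out transgenic replicate 1 or control replicate 3 left 3 and 0 in each case, and leaving out transgenic replicate 4 gave 8 and 3. Counts over all genes moved too, from 932 higher and 333 lower with all livers. They were 662 and 113 without replicate 2 of both groups. Without transgenic replicates 1, 2 or 4 they were 199 and 3, 977 and 260, or 1636 and 944. Without control replicates 2 or 3 they were 192 and 10, or 203 and 35.

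The macrophage-made genes and the hepatocyte-made genes differed in their counts. Of the 6 macrophage-made genes 5 rose, all 6 log2 fold changes were positive and their median was 1.51. Of the 18 hepatocyte-made genes 2 rose, 8 values were positive and 10 negative, and the median was -0.070, close to the median of -0.074 over all genes. Of the 19938 genes in all, 7654 had a positive and 12284 a negative value. Readings of transgenic and control livers did not overlap for 6 of 6 macrophage-made genes, all higher, and for 5 of 18 hepatocyte-made genes, 3 higher and 2 lower. Among all genes such separation occurred for 22.4%, with 11.2% in either direction. These medians and counts are descriptions of chosen genes, and no test was run over them.

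**Figure D1:**
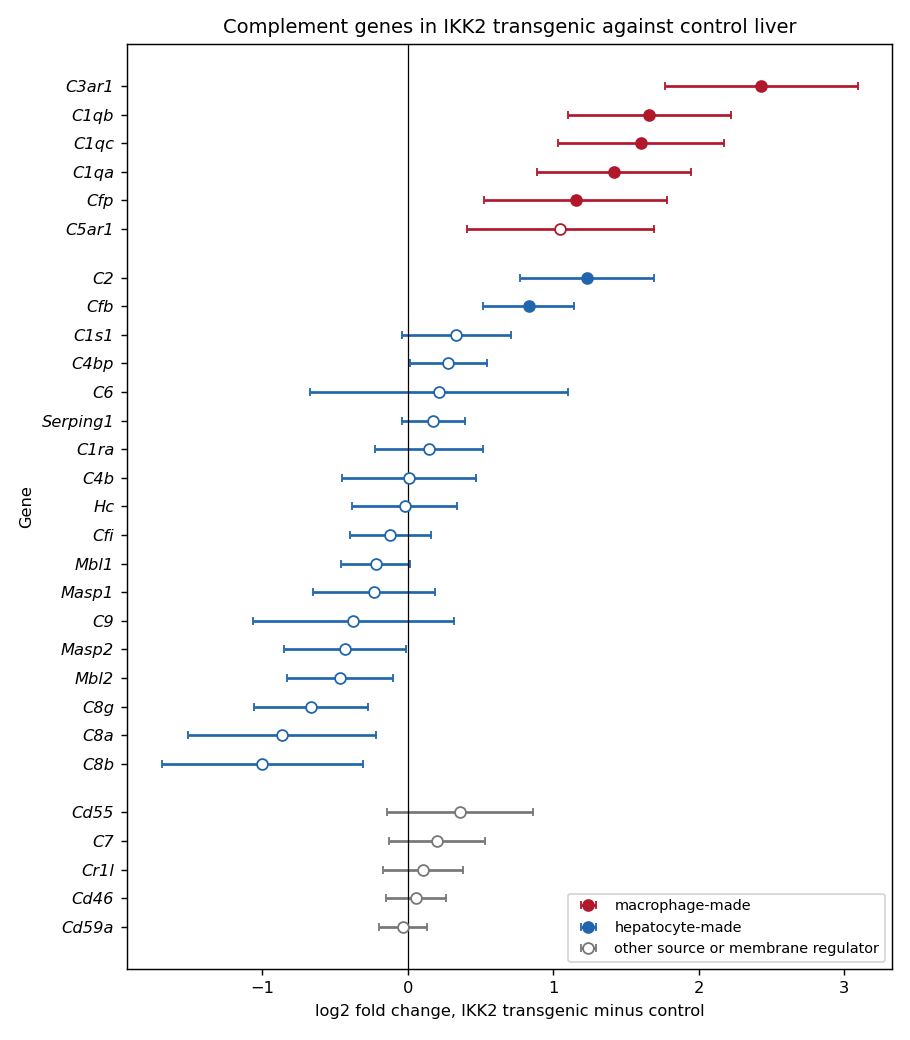
Log2 fold change of the 29 complement genes, transgenic minus control, on the horizontal axis, with 95% confidence intervals from limma as bars and 1 gene per row. Filled points passed at an adjusted p under 0.05; the 6 macrophage-made genes (red) all lie right of 0, from 1.05 to 2.43, while the 18 hepatocyte-made genes (blue) run from -0.999 to 1.23, with C2 and Cfb as their 2 filled points.

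C1q is built from 3 kinds of chain, each with a collagen-like stalk and a globular head that binds antibody, C-reactive protein or dying cells. All 3 genes rose, by 2.67-fold to 3.16-fold. In the order of their replicate numbers, the transgenic livers gave 9.63, 10.39, 9.34 and 9.17 for C1qa (probe set 10517517), against 8.48, 8.27, 8.02 and 8.09 in the controls. C1qb (probe set 10517508) read 9.66, 10.56, 9.37 and 9.30 in transgenic livers, and 8.21, 8.26, 7.79 and 7.97 in the controls. For C1qc (probe set 10517513) the transgenic readings were 9.64, 10.50, 9.41 and 9.11, and the control readings 8.32, 8.11, 7.87 and 7.95. Every transgenic liver lay above every control for each chain, and transgenic replicate 2 was the highest each time. The log2 fold changes were 1.42 for C1qa (SE 0.24, limma adjusted p = 0.0140), 1.66 for C1qb (SE 0.25, limma adjusted p = 0.0101) and 1.61 for C1qc (SE 0.26, limma adjusted p = 0.0122).

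C1qb kept its call in all 17 alternatives planned. C1qa did not pass when transgenic replicate 1 (adjusted p = 0.0571) or 1 of control replicates 2, 3 and 4 (0.0579, 0.0575 and 0.0505) was left out, over a range of 0.00113 to 0.0579 in all 17. C1qc did not pass when control replicate 2 or 3 was left out (0.0520 and 0.0514), over a range of 0.000631 to 0.0520.

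The 3 C1q genes are direct neighbours, in the order C1qb, C1qc, C1qa, with 0 protein-coding genes between them in the RefSeq annotation of GRCm38.p6. Because these neighbours moved together, the promoter windows of C1qb and C1qc are shown, 250 bases before to 50 after the start of transcription (RefSeq, GRCm38.p6; C1qb at chr4:136886151-136886450, minus strand; C1qc at chr4:136892865-136893164, minus strand). Capitals would mark a match, on either strand, to the NF-kB type motif searched (GGG, any 3 bases, then TTCC), to TTCNNNGAA (STAT3 type, the same on both strands) or to TTGCNNAA (C/EBP type), and neither window holds one.
C1qb: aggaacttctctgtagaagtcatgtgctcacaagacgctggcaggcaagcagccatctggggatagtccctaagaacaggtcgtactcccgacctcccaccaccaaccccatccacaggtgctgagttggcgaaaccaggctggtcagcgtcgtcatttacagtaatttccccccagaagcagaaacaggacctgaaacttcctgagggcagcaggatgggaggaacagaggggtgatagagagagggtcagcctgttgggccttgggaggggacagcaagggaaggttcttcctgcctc
C1qc: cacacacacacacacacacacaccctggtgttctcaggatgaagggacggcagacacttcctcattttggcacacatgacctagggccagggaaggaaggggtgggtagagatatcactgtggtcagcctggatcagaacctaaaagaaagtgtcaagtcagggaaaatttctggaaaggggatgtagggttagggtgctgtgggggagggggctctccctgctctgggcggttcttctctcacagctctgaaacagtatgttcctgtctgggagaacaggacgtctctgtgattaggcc

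C1q acts with the proteases C1r and C1s, which it carries into the C1 complex, and C1 inhibitor (Serping1) takes them off again. These 3 are made by hepatocytes and did not pass. C1s1 averaged 10.19 ± 0.23 in transgenic and 9.85 ± 0.31 in control livers (SD, n = 4 each), a log2 fold change of 0.33 (limma adjusted p = 0.188, 95% interval -0.042 to 0.71). C1ra stood at 0.15 (interval -0.22 to 0.52) and Serping1 at 0.18 (interval -0.037 to 0.39). C1ra has a near copy, C1rb, and a further probe set shared by both was left out, so the reading of C1ra alone is uncertain. The readings of both groups overlapped for each of the 3.

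Properdin (Cfp) stabilises the convertase of the alternative pathway and, unlike most plasma complement proteins, is released by leukocytes. Cfp read 8.87, 9.85, 9.03 and 8.18 in transgenic livers, and 7.96, 7.90, 7.73 and 7.72 in the controls. The groups did not overlap, but transgenic replicate 4 was only 0.22 above the highest control. Cfp rose by 1.15 on the log2 scale (SE 0.28, limma adjusted p = 0.0447). This call was near the threshold and was kept in 9 of 17 alternatives, over a range of adjusted p from 0.00737 to 0.116. It did not hold when transgenic replicate 1 or 3 was left out (0.114 and 0.0546), when any 1 of control replicates 1 to 4 was left out (0.0927, 0.111, 0.116 and 0.0886), with arrays centred on their medians (0.0564) and with all deposited probe sets in the adjustment (0.0765).

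The fragments C3a and C5a act on myeloid cells through the receptors C3ar1 and C5ar1. C3ar1 (probe set 10547657) read 8.07, 8.95, 7.32 and 7.96 in transgenic livers, and 5.79, 5.20, 5.74 and 5.85 in the controls. Its gap between the groups, 1.47, was the widest among the 29 genes. C3ar1 rose 5.39-fold (log2 fold change 2.43, SE 0.30, limma adjusted p = 0.00409) and kept its call in all 17 alternatives. C5ar1 read 5.98, 7.06, 6.00 and 5.40 in transgenic livers, and 5.02, 5.30, 5.03 and 4.89 in the controls. Its groups were separate by 0.099, and the log2 fold change of 1.05 (SE 0.29) did not pass (limma adjusted p = 0.0580). Control readings of C5ar1 were close to the array medians, so the size of this difference is uncertain. C5ar1 passed in 7 of 17 alternatives, among them without transgenic replicate 2 (log2 fold change 0.73, adjusted p = 0.0257) and without transgenic replicate 4 (1.29, adjusted p = 0.0182), over a range of 0.0182 to 0.133.

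The promoter window of C3ar1 is shown because C3ar1 had the highest log2 fold change of the 29 (RefSeq, GRCm38.p6, chr6:122856108-122856407, minus strand). Among the windows available, which leave out C1qa, C2 and Cfb, it was also the 1 with a match to the NF-kB type motif. The match, in capitals, lies on the opposite strand from -14 to -5, counted with the first transcribed base as 0, where it reads GGGCCTTTCC.
C3ar1: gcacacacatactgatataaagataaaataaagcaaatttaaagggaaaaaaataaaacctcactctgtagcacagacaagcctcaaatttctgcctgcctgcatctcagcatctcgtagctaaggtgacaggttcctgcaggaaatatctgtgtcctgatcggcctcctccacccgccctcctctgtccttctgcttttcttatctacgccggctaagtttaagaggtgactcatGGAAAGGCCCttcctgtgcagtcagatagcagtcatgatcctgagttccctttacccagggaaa

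Windows were found for 22 of the 29 genes, 24 windows in all, since C1s1 and C8g have a pair each. C1qa, C2, C4b, Cfb, Cfi, Masp1 and Serping1 had no window, so these genes, among them the called C1qa, C2 and Cfb, were not searched. The NF-kB type motif occurred in 1 of the 24, against 5.56% of 32841 windows of the same length. TTCNNNGAA occurred in 4 (C1ra, C7, C8a and Masp2), against 8.30%, and TTGCNNAA in 3 (C1ra, C1s1 and C9), against 10.8%. A match is only a description of these letters.

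**Figure D2:**
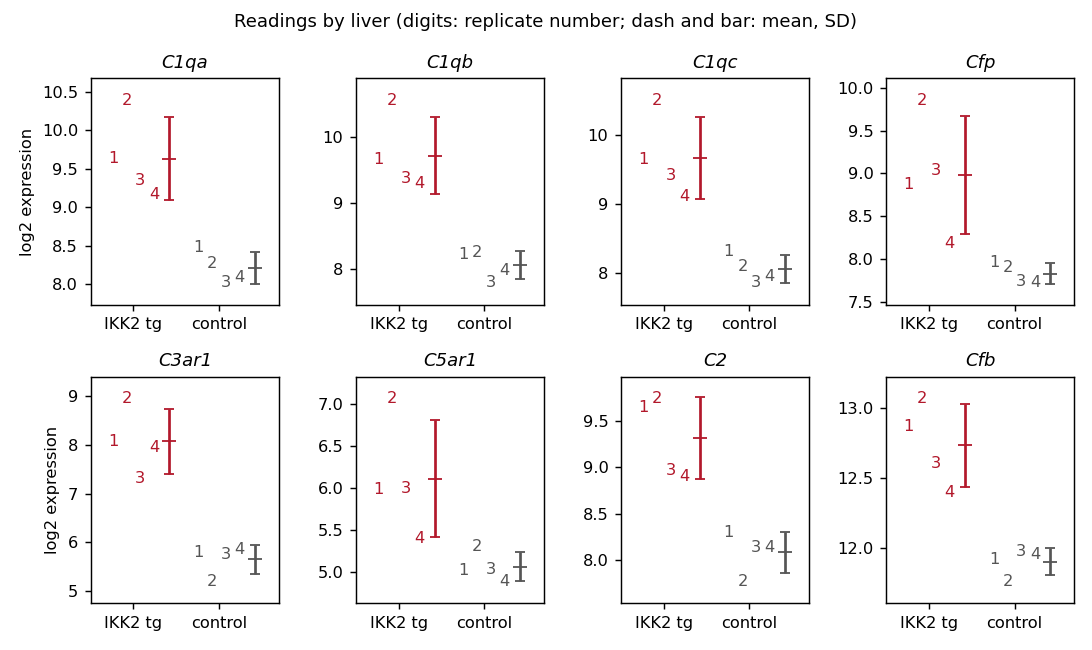
Log2 expression (vertical axes, scaled to each gene) of 8 complement genes in transgenic (red, left) and control (grey, right) livers. Digits are replicate numbers, and the dash with its bar is the mean and SD of 4 livers. The genes shown are the 7 called ones and C5ar1, so their separation partly follows from that choice. In all 8 genes every transgenic liver lies above every control, as in 11.2% of all genes. The gap is 0.099 for C5ar1 and 1.47 for C3ar1, and transgenic replicate 2 is the highest in each.

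Transcripts that mark macrophages were higher in the same livers. Over all genes 4.67% were called higher and 1.67% lower, the background for the marker counts that follow. Of 12 Kupffer cell and macrophage markers 9 rose and 0 fell, with a median log2 fold change of 1.67, led by the lysozyme Lyz2 at 2.84. Their mean level ran from 8.57 to 9.84 in transgenic and from 7.26 to 7.69 in control livers. Of 5 monocyte markers 4 rose, with a median of 2.32 and a mean level of 6.05 to 7.52 in transgenic and 4.44 to 4.61 in control livers. Transgenic replicate 2 was the highest for both marker lists, as it was for the macrophage-made complement genes. In bulk liver more cells of a type and more RNA per cell cannot be told apart, and the part of macrophage number in these rises was not tested. Neutrophils also carry C5ar1 and store properdin. Of 8 neutrophil markers 0 passed limma's test and 1 was higher at an unadjusted p under 0.05, as were 15.3% of all genes. The neutrophil means were 4.22 to 4.69 in transgenic and 4.21 to 4.48 in control livers, under every array median, and the part of neutrophils in the values of C5ar1 and Cfp was not tested. Of 4 dendritic cell markers 3 rose (median 0.77), as did 2 of 5 T and NK cell markers (median 0.81) and 2 of 8 stellate cell and fibroblast markers (median 0.41). Limma called 0 of 6 endothelial, 0 of 3 B cell and 0 of 7 adipocyte and mesothelial markers. At an unadjusted p under 0.05, 2 endothelial markers were higher, 1 adipocyte and mesothelial marker was lower and 0 B cell markers passed. Over all genes 15.3% were higher and 18.3% lower at that threshold.

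**Figure D3:**
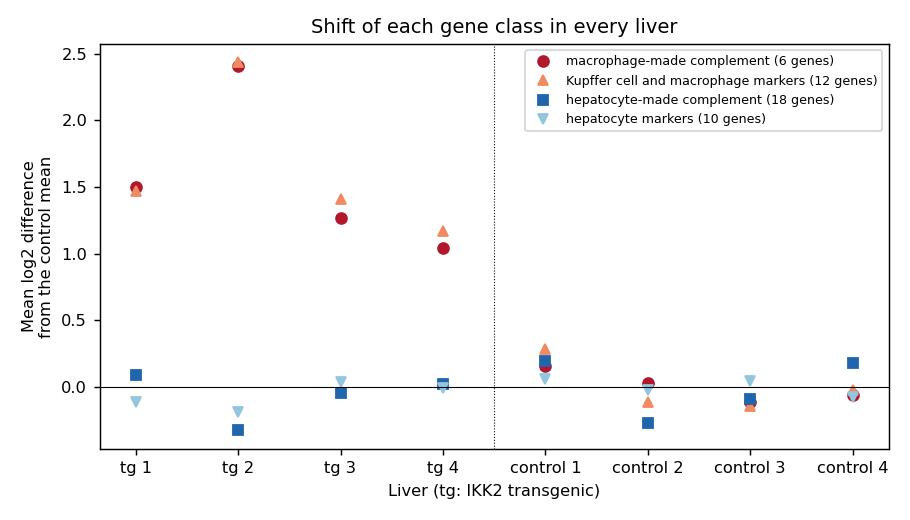
Mean log2 difference from the control mean (vertical axis) of 4 gene groups in each of the 8 livers (horizontal axis, transgenic livers left of the dotted line). The 6 macrophage-made complement genes stand at 1.497, 2.41, 1.27 and 1.04 in transgenic replicates 1 to 4, beside the macrophage markers, while the 18 hepatocyte-made genes stand between -0.33 and 0.090 there and between -0.27 and 0.19 in the controls.

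Among the hepatocyte-made genes the rise was limited, in limma's test, to C2 and Cfb. C2 is the protease of the classical and lectin convertase and factor B (Cfb) its counterpart in the alternative one. C2 (probe set 10450344) read 9.65, 9.74, 8.96 and 8.90 in transgenic livers, and 8.29, 7.77, 8.14 and 8.13 in the controls. Cfb (probe set 10450325) read 12.86, 13.07, 12.60 and 12.39 in transgenic livers, and 11.92, 11.76, 11.97 and 11.95 in the controls. In both genes the groups were separate, with transgenic replicates 1 and 2 above replicates 3 and 4. C2 rose 2.35-fold (log2 fold change 1.23, SE 0.21, limma adjusted p = 0.0145). Cfb rose 1.78-fold (log2 fold change 0.83, SE 0.14, limma adjusted p = 0.0145).

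C2 and Cfb are neighbours with 0 protein-coding genes between them. Macrophages make both proteins as well, and the cell of origin of these rises was not tested. The hepatocyte markers had a median of -0.079, close to the -0.074 over all genes. Limma called 0 of 10 of these markers, against 6.34% of all genes. At an unadjusted p under 0.05, 2 of them were lower, as were 18.3% of all genes. C2 did not pass when transgenic replicate 1 (adjusted p = 0.0576) or control replicate 2 or 3 (0.0584 and 0.0521) was left out, in a range of 0.00651 to 0.0584. Cfb did not pass when transgenic replicate 1 (0.0595) or control replicate 2 (0.0589) was left out, in a range of 0.00448 to 0.0595.

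The other hepatocyte-made factors of the early classical pathway did not pass. C4b, the source of the C4b that anchors the convertase, averaged 10.75 ± 0.30 in transgenic and 10.74 ± 0.40 in control livers (SD, n = 4 each), a log2 fold change of 0.0092 with an interval of -0.45 to 0.47. C4b has a near-identical copy, C4a, at -0.061, and probe sets may not keep them apart. C4bp, the plasma protein that dismantles this convertase, read 12.33, 11.88, 11.92 and 11.87 in transgenic livers, and 11.84, 11.63, 11.62 and 11.81 in the controls. Its groups were just separate, by 0.036, but the log2 fold change of 0.28 did not pass (limma adjusted p = 0.137). Factor I (Cfi), the protease that cuts C3b and C4b, stood at -0.12 (interval -0.40 to 0.16).

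The lectin pathway senses sugars on microbes through the mannose-binding lectins Mbl1 and Mbl2 and the proteases Masp1 and Masp2. All 4 log2 fold changes were negative, from -0.47 to -0.22, and 0 of 4 passed limma's test. Negative values also belonged to 12284 of the 19938 genes in all. Of the 4, Mbl2 and Masp2 were lower at an unadjusted p under 0.05, as were 18.3% of all genes. Mbl2 read 10.81, 10.75, 11.37 and 11.42 in transgenic livers, and 11.49, 11.67, 11.40 and 11.65 in the controls. Transgenic replicates 1 and 2 lay well below the controls, while replicates 3 and 4 lay close to the lowest control. Its log2 fold change was -0.47 (SE 0.16, limma adjusted p = 0.0930), and it passed only without transgenic replicate 4 (-0.58, adjusted p = 0.0465; range 0.0465 to 0.218). Masp2 stood at -0.43 (interval -0.85 to -0.0095), Masp1 at -0.23 (interval -0.65 to 0.18) and Mbl1 at -0.22 (interval -0.46 to 0.018).

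The terminal pathway gave 0 calls among 7 genes in limma's test, with 5 negative and 2 positive values and a median of -0.37. Over all genes 12284 of 19938 values were negative and the median was -0.074. The most negative values belonged to the 3 chains of C8, the component that inserts into the membrane and starts the C9 pore. C8b read 10.88, 9.71, 10.95 and 11.39 in transgenic livers, and 11.99, 11.47, 11.51 and 11.95 in the controls. C8g read 10.27, 9.60, 10.35 and 10.52 in transgenic livers, and 10.79, 10.97, 10.88 and 10.76 in the controls. For C8a the transgenic readings were 10.34, 9.37, 9.94 and 10.40, and the control readings 11.31, 10.63, 10.23 and 11.32. The groups were separate for C8b and C8g and overlapped for C8a, in which control replicate 3 lay below transgenic replicates 1 and 4. Transgenic replicate 2 was the lowest liver for all 3 chains.

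The log2 fold changes were -0.999 for C8b (SE 0.31, limma adjusted p = 0.0731), -0.86 for C8a (SE 0.29, limma adjusted p = 0.0845) and -0.66 for C8g (SE 0.18, limma adjusted p = 0.0542). All 3 were lower at an unadjusted p under 0.05, as were 18.3% of all genes. C8g passed in 6 of 17 alternatives, among them without transgenic replicate 2 (-0.47, adjusted p = 0.0223) and without transgenic replicate 4 (-0.78, adjusted p = 0.0269). C8b passed in 2, among them without transgenic replicate 4 (-1.22, adjusted p = 0.0322), and C8a in 2. Their adjusted p ran from 0.0223 to 0.133 for C8g, from 0.0322 to 0.155 for C8b and from 0.0392 to 0.159 for C8a. C8a and C8b are direct neighbours.

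The other terminal genes had readings that overlapped between the groups. C5, encoded by Hc and cut into C5a and the seed of the pore, averaged 11.49 ± 0.25 in transgenic and 11.51 ± 0.27 in control livers (SD, n = 4 each), a log2 fold change of -0.021. C9, which forms the wall of the pore, read 10.11, 8.79, 9.30 and 9.78 in transgenic livers, and 10.43, 9.44, 9.44 and 10.16 in the controls, a log2 fold change of -0.37 with a wide interval of -1.06 to 0.32. C6, which joins C5b, averaged 7.33 ± 0.23 in transgenic and 7.12 ± 0.97 in control livers (SD, n = 4 each). The wide control spread of C6 came from control replicate 2 at 5.81, against 6.94 to 7.92 in the other controls. C7, the next to bind and a product of stromal cells, read 4.18 to 4.85 in transgenic and 4.22 to 4.49 in control livers, all under every array median, so no size can be given.

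**Figure D4:**
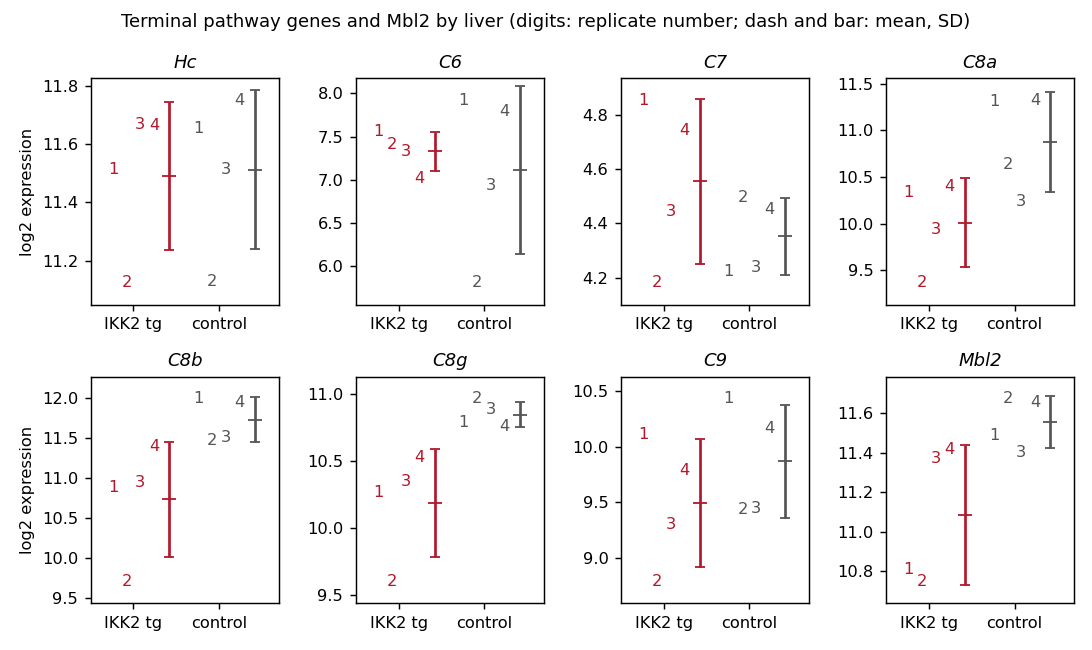
Log2 expression (vertical axes, scaled to each gene) of the 7 terminal pathway genes and Mbl2 in transgenic (red, left) and control (grey, right) livers. Digits are replicate numbers, and the dash with its bar is the mean and SD of 4 livers. C8b and C8g are separate between the groups, and transgenic replicate 2 is the lowest liver of its group for 6 of the 7 terminal genes, C6 being the exception.

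Host cells protect themselves with membrane regulators, of which 0 of 4 passed limma's test (0 at an unadjusted p under 0.05). Cd59a, which blocks the C9 pore, averaged 9.14 ± 0.057 in transgenic and 9.18 ± 0.033 in control livers (SD, n = 4 each), a log2 fold change of -0.032 with an interval of -0.19 to 0.13. Cr1l, known as Crry, the broad regulator of rodent cells, stood at 0.10 (interval -0.17 to 0.38). Cd55, which speeds the decay of convertases, read 5.49, 6.29, 5.44 and 5.24 in transgenic livers, and 5.59, 5.09, 4.95 and 5.40 in the controls, a log2 fold change of 0.36 (interval -0.14 to 0.86). Without transgenic replicate 2, the highest of these, the log2 fold change of Cd55 was 0.13. Cd46, whose expression in mice is largely confined to the testis, read 2.84 to 3.09 in transgenic and 2.79 to 3.01 in control livers, under every array median.

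**Figure D5:**
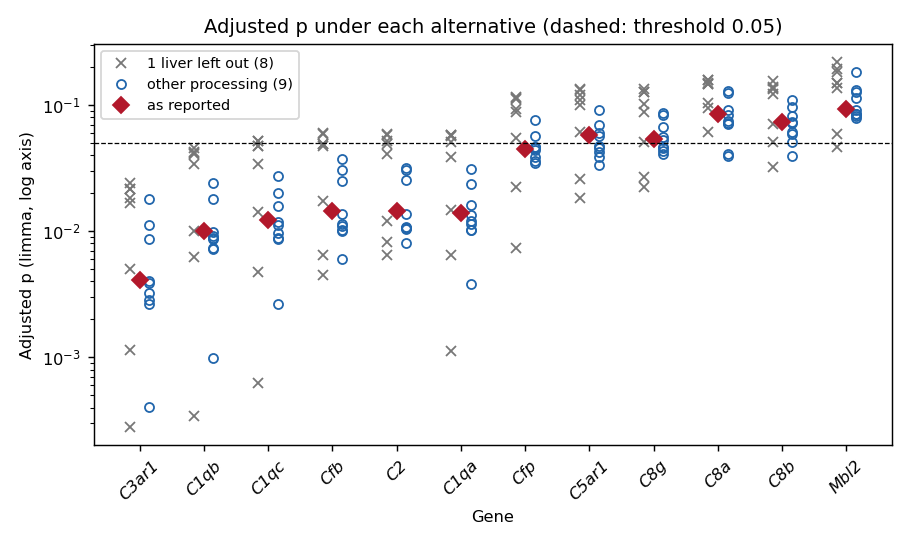
Adjusted p of 12 complement genes (vertical axis, log scale) as reported (red diamonds), with 1 liver left out (grey crosses, 8 per gene) and under 9 other processing choices (blue circles); the dashed line is the threshold of 0.05. C3ar1 and C1qb stay under the line throughout, with highest values of 0.0240 and 0.0455, whereas each of the other genes shown has values on both sides.

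Beyond these genes, 40 further genes tied to complement were listed, among them receptors for its fragments, homologues and recognition proteins, and 35 were measured. Of the 35, 7 rose and 1 fell, against 4.67% and 1.67% of all genes, with a median of 0.061. The chains of complement receptors 3 and 4, phagocyte integrins that bind iC3b, led the rises. Itgax stood at 2.46 (limma adjusted p = 0.00222), Itgam at 2.30 (0.0154) and their shared chain Itgb2 at 2.07 (0.00103). The same reading of Itgax was also counted among the monocyte markers above. Control readings of Itgax and Itgam lay under every array median, which leaves the sizes of these rises uncertain. Vsig4, the C3b receptor of resident macrophages including Kupffer cells, rose by 1.53 (SE 0.24, limma adjusted p = 0.0114), and Cd93, first described as a C1q receptor, by 0.59 (limma adjusted p = 0.0396).

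The remaining calls were of other kinds. Apcs, the pentraxin serum amyloid P that hepatocytes release in the acute phase of mice and that binds C1q, rose by 0.88 (SE 0.16, limma adjusted p = 0.0206). The pseudogene C4bp-ps1 rose by 0.46 (limma adjusted p = 0.0472), with all 8 readings under every array median. Susd4, a complement inhibitor, read 4.65, 4.23, 4.65 and 4.66 in transgenic livers, and 5.38, 5.05, 5.46 and 5.20 in the controls. It fell by 0.72 on the log2 scale (SE 0.13, limma adjusted p = 0.0180), with readings close to the array medians, which leaves its size uncertain. Without transgenic replicate 1 the 35 gave 3 rises and 0 falls, and without transgenic replicate 4 there were 11 and 2. Without control replicates 1, 2, 3 or 4 there were 4 and 0, 3 and 1, 3 and 0, or 6 and 0. Over all genes the 2 transgenic omissions gave 199 higher and 3 lower, and 1636 and 944. The control omissions gave 256 and 13, 192 and 10, 203 and 35, or 268 and 32, against 932 and 333 with all livers.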

How the data were processed

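Total RNA of 8 mouse livers, 1 array each, was labelled as sense targets of whole transcripts. The authors deposited log2 values, 1 per probe set and array. The submitters' processing notes name Affymetrix Expression Console, and no source used here gives its version, settings or normalization. Base 2 was read from the values, whose maximum is 14.1. Of 35556 probe sets, 21789 had 1 gene symbol, 1621 several and 12146 none. Limma 3.58.1 (R 4.3.3) fitted the group to all 21789, with two-sided moderated tests (prior degrees of freedom 3.77) and Benjamini-Hochberg adjustment over them. A gene was read through its brightest probe set; all 29 complement genes had a single one. Every measured gene is named; of the further complement-related genes, those called. The genes and lists were chosen with earlier results of these data known. P-values set the group difference against the spread between these animals, and 8 arrays limit the precision. The steps were tested on simulated data drawn without an outlying liver. Recovery was required there only for changes larger than those of every called complement gene except C3ar1. Alternatives were quantile normalization, centring on array medians, leaving out the dimmest 30% or 50%, averaging probe sets, adjusting over all probe sets, trend and robust moderation, array weights, replicate blocks and leaving out each array. Leaving out replicate 2 of both groups was added after seeing the data.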

Additional observations from a re-analysis of the deposited data

Results flagged for a closer look

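In 6 of 130 groups of 4 livers, 1 reading stood far from the other 3 by Dixon's criterion at the 5% level, where chance marks about 5% of such groups. Transgenic replicate 2 read 11.21 for Vsig4, against 10.05 to 10.25 in its group. The same liver read 4.23 for Susd4, against 4.65 to 4.66. Transgenic replicate 1 read 12.33 for C4bp, against 11.87 to 11.92 in its group. Control replicate 2 read 5.20 for C3ar1, against 5.74 to 5.85 in the other controls. That liver also read 10.14 for C4b, against 10.89 to 10.97, and 7.11 for C4a, against 7.62 to 7.70.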

How the results depend on the processing

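With 1 liver left out in turn, 2 to 8 complement genes rose and 0 to 3 fell, against 7 and 0 with all livers. Among the further complement-related genes 3 to 11 rose and 0 to 2 fell, and among all genes 192 to 1636 rose and 3 to 944 fell. The same omissions gave medians of 1.25 to 1.68 for macrophage-made and -0.21 to 0.041 for hepatocyte-made genes, of which the hepatocyte-made median was positive only without transgenic replicate 2 (0.041), and a difference between both medians of 1.21 to 1.80. With array weights 3 complement genes fell, 2 further genes fell, 501 of all genes fell, and the medians were 1.21 for macrophage-made genes, with a difference of 1.32. With the dimmest 30% or 50% left out and with trend and robust moderation 1 complement gene (C8g) fell, and without the dimmest 50% 0 further genes did. Centring on array medians gave 618 higher and 97 lower genes and a hepatocyte-made median of 0.0099, so the sign of that median depends on scaling. Higher genes made up 73.7% of all calls, 86.4% after centring, 62.6% after quantile normalization (638 lower) and 88.7% with all deposited probe sets in the adjustment (425 higher, 54 lower). Leaving out replicate 2 of both groups gave a macrophage-made median of 1.26 and 113 lower genes. The sample labels do not say whether equal replicate numbers pair the livers. Same-numbered deviations correlated at 0.28, -0.030, 0.27 and -0.13, and differently numbered ones at -0.26 to 0.18. The values 0.28 and 0.27 were the highest of all, but so few livers cannot decide whether a pairing exists. With the replicate block 8 complement genes rose and 1 fell (C8a), with 174 lower genes in all. No log2 fold change of a called complement gene changed sign in any setting. The cause of these changes was not tested. Signal over background is unknown here, which limits C7, Cd46, C5ar1 and Cd55.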
